A study of Mus musculus with 50 samples.

Results

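Open chromatin was compared between motor neurons taken from the spinal cord at postnatal day 21 (P21) and motor neurons made from embryonic stem cells and kept for 28 days in culture (DIV28). The 4 ATAC-seq libraries, 2 per group, were among 22 ATAC-seq libraries in a series of 50 samples that otherwise followed motor neuron maturation by ATAC-seq and RNA-seq from the embryo to 2 years of age and through culture. The P21 libraries came from GFP+ nuclei of brachial, thoracic and lumbar cord of C57BL/6 mice carrying Chat-Cre and the nuclear envelope reporter named SUN1-GFP-3xMYC in the labels and SUN1-sfGFP-Myc in the study's methods, sorted by flow cytometry, with animals of both sexes pooled in each replicate. The DIV28 libraries came from a single stem cell line derived from blastocysts with the same Chat-Cre and SUN1-GFP alleles, differentiated towards cervical motor neurons and grown on astrocyte-enriched cortical glia with GDNF, BDNF, CNTF and IGF, without tetrodotoxin (TTX), and their GFP+ nuclei were sorted in the same manner. Other DIV28 cultures of the series were grown with TTX and also gave ATAC-seq and RNA-seq libraries. By the study's methods, TTX was in their medium from the start of culture until DIV28, so the exposure was not acute. Chat-Cre marks all cholinergic cells of the cord and not motor neurons alone. The paper cites a single-nucleus study in which this driver also marked many inhibitory (GABAergic) and excitatory (glutamatergic) cells of adult cord. In its own P56 RNA the paper found no sizeable share of non-cholinergic cells. It proposes that this perhaps reflects purification of nuclei on beads in place of flow sorting. Tissue origin, cord level, glial environment and stem cell line all differed between the groups, so that these cannot be told apart. The labels do not state that the replicate cultures were independent differentiations.

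The regions were chosen by the peak lists of these 4 libraries alone. Each library gave its 100000 strongest intervals by −log10 p, with a single summit in each, and these were merged across libraries into 178653 regions. A region was P21-only if it held a top peak of both P21 libraries and no peak of any rank in either DIV28 library, and DIV28-only in the reverse case. There were 20035 P21-only regions, which is 11.2% of the merged regions, and 25083 DIV28-only regions, which is 14%. Without the first DIV28 library the P21-only count was 30460, and without the second the DIV28-only count was 38370, since a single library then had to be free of a peak or to hold one. A further 38491 regions held a top peak of all 4 libraries and are called shared, and the remaining 95044 met none of these rules. The last peak kept in each list had a −log10 p of 5.16 and 8.37 in the P21 replicates and of 17.5 and 5.51 in the DIV28 replicates, and the first peak left out had the same values. With 2 libraries against 2, the smallest exact permutation p is 0.333, so no test was applied to peaks.

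ATAC-seq reads out where the Tn5 transposase can enter chromatin, which in most cell types is at promoters and at distal enhancers bound by transcription factors. Hox factors set the position of motor neurons along the cord, and nuclear factor I (NFI) proteins are known as late regulators of maturing neurons. AP-1 is a dimer of Fos and Jun family proteins that is induced by activity, stress and axon injury, where Jun and Atf3 act together in the regeneration programme of peripheral neurons. Cholinergic transmission in motor neurons depends on Chat, the enzyme that makes acetylcholine, and Isl1 and Mnx1 are transcription factors that define the lineage.

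The sequences below show the letters that separated the classes, as windows of 100 bp on each side of the summit of the first replicate, taken from the plus strand of the RefSeq mouse genome GRCm38.p6 (mm10). Capitals mark each match to the motif named, on either strand. For the P21-only class, the 2 regions shown first were those among the 5 distal regions with the highest −log10 p whose window held a listed motif. The first lay in an intron of Msra at chr14:64146292-64146492 and is shown for the posterior Hox letters TTTATNG. The next lay in an intron of the axon guidance ligand gene Sema3e at chr5:14092448-14092648 and is shown for the NFI letters TTGGCA, which cover only part of the full NFI site. The windows near Kcng4 at chr8:119638314-119638514 and in an intron of Kcnc2 at chr10:112373182-112373382, both potassium channel genes, were chosen after their values were seen and also carried the NFI letters.
Msra intron, posterior Hox: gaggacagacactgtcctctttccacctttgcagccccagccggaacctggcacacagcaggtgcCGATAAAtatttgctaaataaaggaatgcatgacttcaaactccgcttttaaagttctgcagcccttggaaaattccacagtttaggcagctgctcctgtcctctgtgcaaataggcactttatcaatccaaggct
Sema3e intron, NFI: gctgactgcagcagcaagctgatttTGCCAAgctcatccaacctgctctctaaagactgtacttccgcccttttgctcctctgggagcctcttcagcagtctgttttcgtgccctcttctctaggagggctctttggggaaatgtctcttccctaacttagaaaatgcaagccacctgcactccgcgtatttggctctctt
Kcng4 upstream, NFI: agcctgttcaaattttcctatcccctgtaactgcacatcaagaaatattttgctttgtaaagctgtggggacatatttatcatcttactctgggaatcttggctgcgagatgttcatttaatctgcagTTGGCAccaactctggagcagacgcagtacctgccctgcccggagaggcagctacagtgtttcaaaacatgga
Kcnc2 intron, NFI: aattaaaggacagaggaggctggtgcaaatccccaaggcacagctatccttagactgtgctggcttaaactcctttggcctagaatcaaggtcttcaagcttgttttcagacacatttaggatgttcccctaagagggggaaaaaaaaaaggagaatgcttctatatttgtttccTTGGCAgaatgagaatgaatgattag

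Among the top 5 DIV28-only distal regions, 2 held the AP-1 letters TGANTCA, in an intron of Sfi1 at chr11:3174023-3174223 and in an intergenic region at chr1:85551676-85551876. The windows for Atf3 at chr1:191222125-191222325, Sox11 at chr12:27256430-27256630 and Gap43 at chr16:42454622-42454822 were chosen after their values were seen, because these are genes of axon regeneration. Each was the strongest DIV28-only distal region given to its gene, and they lay 4186, 86044 and 114071 bp from the start. The Sox11 region also had a peak in 2 in vivo libraries, both of 2 years.
Sfi1 intron, AP-1: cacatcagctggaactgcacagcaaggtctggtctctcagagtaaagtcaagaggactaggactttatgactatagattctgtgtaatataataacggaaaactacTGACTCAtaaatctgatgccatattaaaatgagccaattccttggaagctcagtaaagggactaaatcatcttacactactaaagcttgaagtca
Chromosome 1 intergenic, AP-1: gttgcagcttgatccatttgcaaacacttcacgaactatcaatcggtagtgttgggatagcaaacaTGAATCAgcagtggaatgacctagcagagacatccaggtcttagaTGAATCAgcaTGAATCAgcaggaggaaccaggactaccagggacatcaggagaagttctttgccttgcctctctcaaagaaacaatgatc
Atf3 region, AP-1: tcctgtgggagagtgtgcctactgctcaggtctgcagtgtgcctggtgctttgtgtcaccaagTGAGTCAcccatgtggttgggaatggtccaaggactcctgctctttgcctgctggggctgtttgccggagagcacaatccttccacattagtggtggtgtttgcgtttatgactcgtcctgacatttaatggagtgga
Sox11 region, AP-1: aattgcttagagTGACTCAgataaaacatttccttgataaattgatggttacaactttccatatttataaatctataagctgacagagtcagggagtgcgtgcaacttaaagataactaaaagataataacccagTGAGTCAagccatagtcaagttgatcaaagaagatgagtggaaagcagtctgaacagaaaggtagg
Gap43 region, AP-1: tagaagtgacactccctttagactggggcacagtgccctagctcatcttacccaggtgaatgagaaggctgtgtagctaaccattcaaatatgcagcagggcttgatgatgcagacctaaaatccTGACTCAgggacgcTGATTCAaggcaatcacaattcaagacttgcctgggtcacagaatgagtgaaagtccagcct

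Peaks were listed in numbers of 163235 and 189868 in the P21 replicates and 224328 and 152667 in the DIV28 replicates, and the read depth behind them is unknown. Promoters of 11, 11, 10 and 10 of 11 motor neuron identity genes carried a top peak in the 2 P21 and the 2 DIV28 libraries in turn, Isl1 and Mnx1 in all 4, as did Chat. Lhx3, a factor of early motor neurons, had a promoter peak in both P21 libraries and neither DIV28 library. Signs of other cells differed between the groups. Promoters of the interneuron transporter genes Slc6a5, Slc32a1 and Slc17a6 held a top peak in both P21 libraries and in neither DIV28 library. Of 8 oligodendrocyte marker genes, 5, 5, 4 and 4 had a promoter top peak in the 2 P21 and the 2 DIV28 libraries in turn. Among these 8, Mog, Mag and Sox10 had none in any of the 4. Of the other interneuron genes, Gad1, Gad2, Pax2 and Lhx1 had a promoter top peak in all 4 libraries and Tlx3 in the DIV28 libraries only, and in RNA Gad1 was higher at DIV28 (log2 −1.66 ± 0.35, not called without the first P21 or the first DIV28 library), whereas Slc6a5 and Pax2 were higher at P21. In RNA the summed level of 8 oligodendrocyte markers was 201.3 to 247.6 TPM, a level corrected for transcript length and depth, at P21 and 1.14 to 1.17 TPM at DIV28, and that of 8 astrocyte markers was 43.6 to 52.9 TPM and 6.21 to 9.04 TPM. Sums for the other marker lists of 8 genes each were 22.4 to 24 TPM at P21 and 10.9 to 13.1 TPM at DIV28 for interneurons, 3.71 to 9.42 and 3.97 to 5.36 for microglia, 2.37 to 2.59 and 1.64 to 2.3 for endothelium, 2.05 to 7.37 and 7.54 to 9.62 for fibroblasts and 1.74 to 4.02 and 0.16 to 0.43 for pluripotent cells, of which only Esrrb was high enough to be tested. Nanog, Zfp42 and Dppa3 were at 0 in all 5 RNA libraries. The RNA nuclei were purified on beads and not by the flow sort used for ATAC-seq. The part of these cells in the P21-only regions was not tested.

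A large share of the top peaks of either system had no peak in the other, above the share seen between replicates. Of the top 100000 P21 peaks, 36.1% ± 6.28 (SD over 4 pairs of libraries) had no overlapping peak in a DIV28 library, and of the top DIV28 peaks 42.7% ± 3.8 had none at P21. Between replicates this share was 3.0% to 11.8%. The 4 values for P21 peaks were 31.7%, 42.4%, 29.9% and 40.5%, with the higher values against the second DIV28 replicate, which had the fewest peaks of the 4 libraries. The 4 values for DIV28 peaks were 46.6%, 40.2%, 45.2% and 38.8%. No cross-system pair fell within the range of the replicate pairs. The pairs share libraries, so that the SD is a description of their spread.

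Both single-system classes lay mostly away from promoters. Distal regions, over 2000 bp from any annotated transcript start, made up 90.05% of P21-only regions (18041 regions) and 88.75% of DIV28-only regions (22261 regions), against 59.1% of shared regions and 81.5% of all merged regions. By place, 44.2% of P21-only regions were intronic and 42.7% intergenic, and for DIV28-only regions these shares were 39.4% and 46.6%. The median width was 549 bp for P21-only, 607 bp for DIV28-only and 1029 bp for shared regions. As a description of what the rule selected, the median rank of P21-only peaks was 58065 and 60878 in the P21 replicates, with a median fold enrichment of 3.999 and 4.44. The DIV28-only peaks had a median rank of 50585 and 53021 and a median fold enrichment of 9.06 and 5.79. Median fold enrichment over all peaks of a library was 3.08 and 3.13 at P21 and 4.99 and 4.64 at DIV28, so the scale differed between systems for all peaks.

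The 18 ATAC-seq libraries that played no part in the choice of regions were then read. The P21-only regions were mostly open in all libraries of later age and less often at the ages before P13. A peak was present for 85.1% and 89.4% of P21-only regions in the P56 replicates and for 83.9% and 88.1% in the 2-year replicates. Both P13 replicates lay close to this, at 75.9% and 92.9%. Earlier ages were lower, with 52.5% and 42.1% at P4, 44.0% and 42.5% at embryonic day E13.5 and 11.8% and 20.4% at E10.5. A peak in both libraries was held by 7620 regions at E13.5 and 7271 at P4, with no rise by this count. Shared regions also varied with age, at 51.4% and 59.5% at E10.5, 84.2% and 80.9% at E13.5 and 94.2% and 98.5% at P13. The peak lists differed in length, from 80386 in the first E10.5 library to 179718 in the first E13.5 library. The E10.5 libraries were made from whole sorted Hb9-GFP cells and not from nuclei, which cannot be told apart from age. Of the 20035 regions, 13597 (67.9%) had a peak in all 4 libraries of P56 and 2 years.

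In culture the P21-only regions were seldom open at any stage. At DIV0, when the stem cell-derived motor neurons had just been formed, 18.9% and 15.8% had a peak, at DIV7 7.72% and 12.3%, and at DIV28 with the sodium channel blocker TTX 18.1% and 12.3%. The TTX share was 30.8% on average when the regions were chosen without the first DIV28 library. No peak in any of the 8 culture libraries was found for 11882 regions (59.3%), where absence from the 2 DIV28 libraries without TTX follows from the rule. A subset was open early and not later: 2637 regions (13.2%) had a peak in both DIV0 libraries, of which 2338 were also listed in both E13.5 libraries, and 1308 (6.53%) had it in both DIV0 libraries and in neither DIV7 library. By the first in vivo age at which both libraries held a peak, 1900 regions were listed from E10.5, 6161 from E13.5, 2436 from P4, 5817 from P13 and 3721 from P21.

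Most DIV28-only regions had no peak in vivo at any age, as most P21-only regions had none in culture. Most were also not listed in both libraries of DIV0 or of DIV7. The share with a peak ranged from 2.76% to 6.47% over the E10.5, P4, P13, P56 and 2-year libraries, and was 16.1% and 13.2% at E13.5. When the regions were chosen without the second P21 library the mean share was 9.14% at P56 and 10.8% at 2 years. In 16598 regions (66.2%) none of the 14 in vivo libraries held a peak, where absence from the 2 P21 libraries follows from the rule. At DIV0 7.40% and 6.48% had a peak and at DIV7 37.6% and 47.9%. The TTX-treated DIV28 libraries held 95.7% and 80.6% of them, and 19938 regions (79.5%) had a peak in both. The regions without a peak in either TTX library numbered 803 (3.20%). In order of first appearance in both culture libraries, 1291 regions (5.15%) were listed from DIV0, 6684 (26.7%) from DIV7 and 17108 (68.2%) from DIV28. The plot of peak presence by library sets both classes beside the shared regions.

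**Figure D1:**
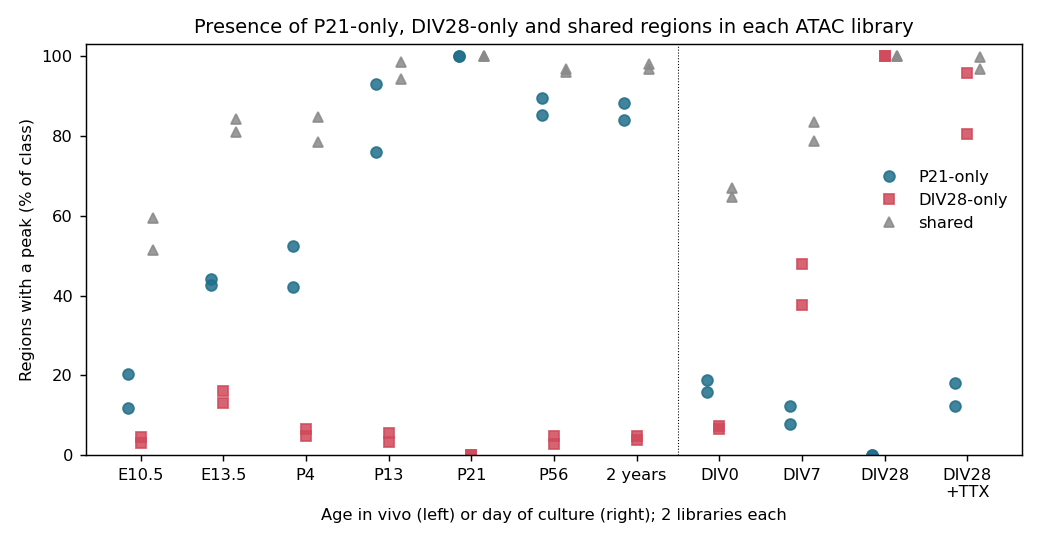
Percent of P21-only, DIV28-only and shared regions with a peak in each ATAC-seq library, by age or culture day, with 1 point per library. P21-only regions reach 83.9% to 89.4% in the adult libraries and stay at or below 18.9% in culture, whereas DIV28-only regions reach 80.6% to 95.7% in the TTX libraries and at most 16.1% in vivo, and the values of 0% and 100% at P21 and DIV28 for these classes follow from the rule.

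Sequence was next read around the summits, which the rule did not use. In percentage points the largest contrast was in the AP-1 letters TGANTCA, found within 100 bp of the summit in 68.3% of DIV28-only distal regions and in 5.15% of P21-only distal regions. The letters are palindromic, so both strands were covered by 1 search. The share was 29.8% in shared distal regions and 33.5% in all distal regions. At windows 2000 bp from the same summits it was 6.29% for P21-only and 6.52% for DIV28-only regions, so that the P21-only summits held the letters slightly less often than their flanks. Around the summits of the second replicate the shares were 5.27% and 66.4%. Of the DIV28-only regions, 12262 held a single match and 2944 held 2 or more. In 83.2% of the regions with a match its centre base was C or G, the form bound by Fos and Jun dimers. The centre base was not counted in the flanks or in the other classes, so this share has no background. In the chromosome 1 window shown above every match had A in the centre.

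The AP-1 share was higher in stronger DIV28-only regions and was near equal in those first listed at DIV7 and at DIV28. In 5 equal parts of the DIV28-only regions by rank, from the strongest to the weakest, it was 76.1%, 71.1%, 67.1%, 65% and 62.1%, while in P21-only regions each such part lay between 4.55% and 5.88%. Regions first listed at DIV7 held it in 70.6% and those first listed at DIV28 in 68.9%, against 47.2% of the 1082 distal regions listed from DIV0. Near promoters the share was 63.7% of DIV28-only, 4.11% of P21-only and 7.01% of shared regions. In all, 15206 of the 48755 distal regions with AP-1 letters were DIV28-only, which is 31.2%, where DIV28-only regions were 15.3% of all distal regions.

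DIV28-only regions with AP-1 letters were seen less often than those without in 11 of the 12 in vivo libraries that the rule did not use, the second 2-year library being the exception (4.71% and 4.69%). At E13.5 11.8% and 9.94% of the regions with the letters had a peak, and 25.7% and 20.6% of those without. In the TTX libraries 95.2% and 78.3% of regions with the letters had a peak, beside 96.8% and 85.6% of those without. Among distal regions with no peak in either TTX library, 557 of 709 (78.6%) held AP-1 letters, and among those with a peak in both it was 66.3%. Both shares are far above the 33.5% of all distal regions.

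P21-only summits held other letters more often than DIV28-only summits. The NFI letters TTGGCA were found in 18.8% of P21-only and 12.7% of DIV28-only distal regions, with 16% in all distal regions and 9.77% and 9.87% in the flanks of the 2 classes. The E-box CAGCTG, which is bound by basic helix-loop-helix factors, stood at 18.5% and 12.4%, with flanks of 7.66% and 7.98%. Letters of posterior Hox factors, TTTATNG, were in 16.9% of P21-only and 9.9% of DIV28-only regions, where the flanks held 12.4% and 12%, so that the 1 class lay above and the other below its surroundings. The homeodomain letters TAATTA were in 7.71% and 3.71%, but their flanks held 7.47% and 6.74%. The glucocorticoid response element (GRE), to which steroid hormone receptors bind, reached 5.08% and 3.36%, and the flanks 2.48% and 2.68%. In shared distal regions TTGGCA was at 16.6%, CAGCTG at 18.2%, TTTATNG at 10.3%, TAATTA at 4.29% and the GRE at 3.67%. For CAGCTG the P21-only share was thus near that of shared regions, and the DIV28-only share was below both.

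Letters of STAT factors (TTCCNGGAA), which act downstream of CNTF-type cytokines, were on the culture side, with 2.57% of DIV28-only and 0.371% of P21-only regions and flanks of 0.539% and 0.482%. CNTF was in the medium of the cultures, and its part in this was not tested. The motif of the chromatin boundary factor CTCF was in 2.46% of P21-only, 0.108% of DIV28-only and 7.43% of shared distal regions. Ebf letters were at 1% and 0.517% with flanks of 0.371% and 0.368%, and the Mef2 motif at 4.08% and 2.87% with flanks of 4.22% and 4.06%. Shared distal regions held the Ebf letters in 1.03% and the Mef2 motif in 3.85%, near the P21-only shares. Base composition was near equal between the single-system classes, with 45.4% and 45.1% G and C, and differed from the 49.0% of shared regions. Repeats covered 9.77% and 12.5% of the windows.

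**Figure D2:**
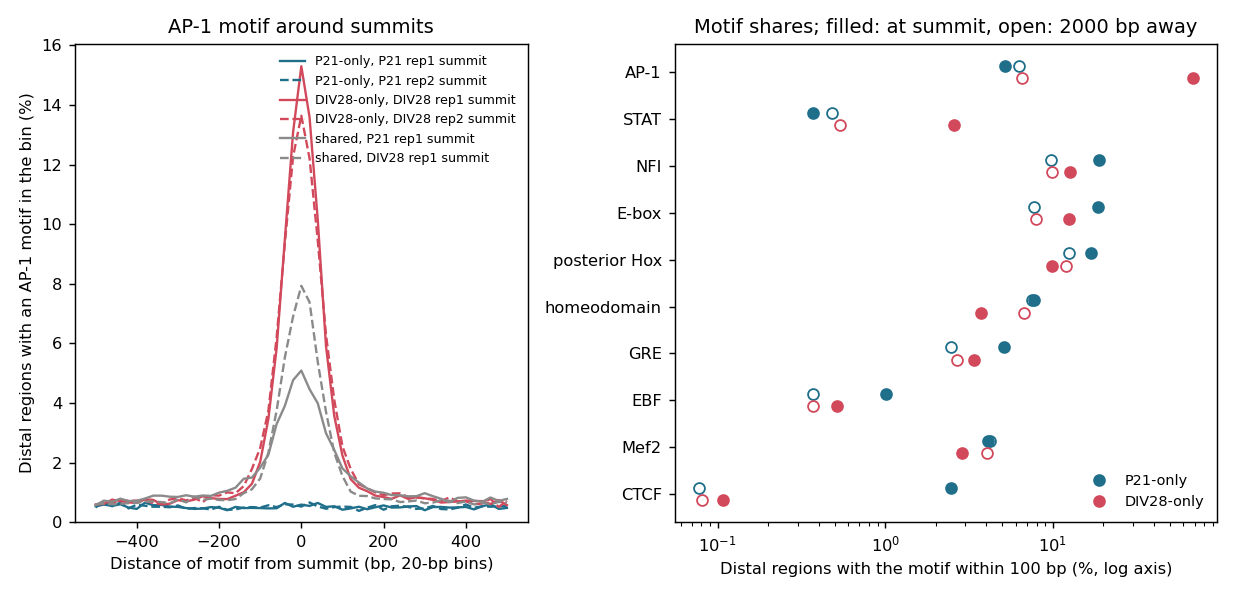
Left, percent of distal regions with an AP-1 match in each 20-bp bin by distance from the summit in bp, for the summits of each replicate. Right, percent of P21-only and DIV28-only distal regions that hold each motif within 100 bp of the summit (filled) or of a point 2000 bp away (open) on a log axis, where AP-1 stands at 68.3% in DIV28-only and 5.15% in P21-only regions. The row marked NFI is for the short letters TTGGCA and not the full site.

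The letters in P21-only regions also differed by the age at which a region was first listed. Posterior Hox letters were most frequent among distal regions first listed at E13.5, at 22.2%, and were in 12.8% to 15.8% of the regions of the other ages. NFI letters were in 11.7% of those listed from E10.5, 16.9% from E13.5, 17.3% from P4, 24.1% from P13 and 17.9% from P21. The steroid receptor letters went from 2.95% at E10.5 through 4.09% and 4.55% to 6.27% at P13 and 6.17% at P21. CTCF was at 8.32% among regions listed from E10.5 and at 0.947% to 2.61% among the others.

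The strongest single regions were not all typical of their class. The region in the Msra intron (chr14:64146025-64147283) had a −log10 p of 172.3 and 290.6 and a fold enrichment of 13.09 and 13.69 in the P21 replicates, and held a peak in 10 of 14 in vivo libraries and none of 8 culture libraries. The Sema3e region (chr5:14092044-14093012) had a −log10 p of 119.9 and 150.8 and a peak in 13 in vivo and no culture libraries. Sema3e itself, in RNA, had normalised counts of 81.1, 59.5 and 102 at P21 and of 231 and 440 at DIV28, which was lower at P21 (log2 P21 minus DIV28 of −2.13 ± 0.36 SE, adjusted p = 4.5e-05, edgeR's quasi-likelihood test), so the open region in its intron and its RNA pointed in opposite directions. Its call was lost without the second DIV28 library. On the DIV28 side the Sfi1 intron region (chr11:3173878-3174670) had a −log10 p of 172.7 and 107.4 and the chromosome 1 region (chr1:85550768-85552095) of 404.4 and 86.39. Both also held peaks in 6 of the 14 in vivo libraries. The remaining DIV28-only regions of the top 5 lay near Zfp945, in an Itga9 intron and near Zfp958, and the last of these held the letters GGGCGGG of Klf and Sp factors and none of the AP-1 letters.

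Genes that gathered single-system regions were taken by the nearest protein-coding start. Of 21938 genes, 364 had at least 5 more P21-only than DIV28-only regions (1.66%) and 394 had at least 5 more DIV28-only regions (1.8%). The number of regions nearest a gene rises with gene length and with the distance to its neighbours, which was not corrected. Leaving out a library for the choice of regions moved these counts by over 1.5 times, to 651 and 620 genes on the P21 side without the first or second P21 library and to 698 and 1081 genes on the DIV28 side without the first or second DIV28 library. Pcdh9, a protocadherin, had 37 P21-only and 4 DIV28-only regions, the adhesion gene Ntm 31 and 7, the teneurin Tenm3 36 and 12, the synaptic scaffold gene Dlg2 35 and 13, Galntl6 27 and 6, the adhesion gene Lsamp 47 and 26, and Ndst4, a heparan sulphate enzyme gene, 21 and 1. B230118H07Rik with 26 and 6 and Zmat4 with 20 and 2 were also among the leading 10 genes.

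In RNA 8 of the leading 10 genes were higher at P21 by the study's limits (unadjusted p under 0.001 and at least 2-fold in edgeR's quasi-likelihood test), where 13.6% of all 15556 genes tested were. The normalised counts of Pcdh9 were 3462, 3895 and 3457 at P21 and 267 and 391 at DIV28 (log2 3.38 ± 0.30 SE, adjusted p = 1.3e-08, edgeR). Tenm3 had 660, 635 and 544 at P21 and 58.7 and 34.2 at DIV28 (log2 3.73 ± 0.23, adjusted p = 1e-10, edgeR). Ntm had 287, 380 and 384, and 57.6 and 146 (log2 1.65 ± 0.36). For each of the 3 genes all P21 libraries lay above both DIV28 libraries. Dlg2 (log2 1.49), Galntl6 (4.17), Ndst4 (7.09) and Zmat4 (6.39) were also called, and Lsamp (log2 0.59 ± 0.24) and B230118H07Rik (−0.27 ± 0.39) were not. The call of Ntm was lost without the first DIV28 library.

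On the DIV28 side the leading genes were of several kinds. Glis3, a zinc finger factor, had 25 DIV28-only and 2 P21-only regions, Sdk1 26 and 4, Sox5 24 and 3, Sox11 27 and 6, Mctp2 25 and 5 and Ywhaq 19 and 0. Sox11, which promotes axon growth, had AP-1 letters at 18 of its 27 regions, all of them distal, a share near the 68.3% of all DIV28-only distal regions. The nearest gene was Gm10330, Gm21863, 5730507C01Rik or Zfp386 for a further set, with 31, 32, 26 and 20 DIV28-only regions. These 4 genes and Ywhaq lie on chromosome 12. The megabase from position 22000001, with regions nearest Gm10330 and Ywhaq, held 26 DIV28-only and 0 P21-only regions, where the median megabase held 9 and 7. Of the 26 regions in that megabase, 12 and 5 had a peak at DIV7, 2 and 2 at DIV0 and 26 and 24 with TTX, with at most 3 in any in vivo library.

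Of the 10 genes on the DIV28 side 7 were higher at DIV28 in RNA, where 14.5% of all tested genes were. Sox11 had normalised counts of 272, 365 and 324 at P21 and 2624 and 3449 at DIV28 (log2 −3.31 ± 0.20, adjusted p = 6.2e-11, edgeR). Glis3 had 162, 112 and 70.7 at P21 and 1092 and 902 at DIV28 (log2 −3.18 ± 0.28). Sdk1 (log2 −3.24), Ywhaq (−1.61), 5730507C01Rik (−1.45), Gm10330 (−3.24) and Sox5 (−1.09) were called as well. Zfp386 (log2 −0.77 ± 0.21) and Mctp2 (0.64 ± 0.37) were not, and Gm21863 was too low to be tested. The call of Sox5 was lost without the first P21 library, without the second DIV28 library and in a fit of P21 and DIV28 alone.

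Over all genes, the balance of regions at a gene and its RNA difference moved together. Among 297 tested genes with a net of 5 or more P21-only regions, 42.1% were higher at P21 (95% Wilson interval 36.6% to 47.8%) and 6.06% higher at DIV28. Among 308 tested genes with a net of 5 or more DIV28-only regions, 7.47% were higher at P21 and 35.7% (30.6% to 41.2%) higher at DIV28. The steps in between were graded: with a net of 2 to 4 P21-only regions 23.9% and 8.12% were called in the 2 directions, with a net of 2 to 4 DIV28-only regions 9.97% and 24.1%, and with no region 7.48% and 15%. The median log2 difference went from −0.70 through −0.19 for genes without a region to 0.89. Most genes with a strong balance of regions were still not called in either direction. Genes are not independent replicates, and the intervals cover counting error only.

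**Figure D3:**
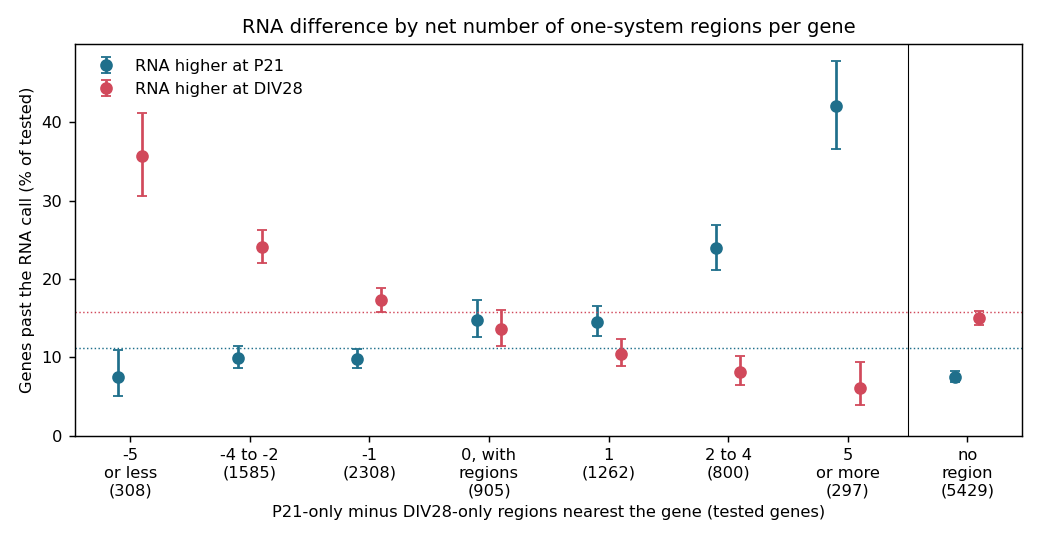
Percent of tested protein-coding genes called higher at P21 or higher at DIV28 in RNA, by the net number of P21-only minus DIV28-only regions at the gene, with 95% Wilson intervals and dotted lines at the shares over all tested protein-coding genes (11.2% and 15.8%). The share higher at P21 reaches 42.1% at a net of 5 or more P21-only regions and the share higher at DIV28 reaches 35.7% at the opposite end.

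The number of DIV28-only regions with AP-1 letters was also read per gene. P21-only regions were not subtracted from this count, which also rises with gene length, so it cannot be set against the net count. Genes with 5 or more DIV28-only regions carrying AP-1 letters were higher at DIV28 in 20.2% and higher at P21 in 23% of 599 tested genes, and genes with none in 14.8% and 8.86% of 8130. Promoters gave a clearer reading on the P21 side. Of 130 tested genes with a P21-only promoter region and no shared promoter region, 40.8% were higher at P21 and 4.62% at DIV28, with a median log2 difference of 1.87. Of 168 such genes with a DIV28-only promoter region, 27.4% were higher at DIV28 and 17.9% at P21, with a median of −0.29. With a shared promoter region besides, the corresponding shares were 22.9% and 8.92% on the P21 side and 17.1% and 11% on the DIV28 side.

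The single promoters with the highest −log10 p were mixed. On the P21 side they were at Kdm4a, Glipr1l1, Gm7298, Gpx7, Rbm19, Eif2ak4, Slc12a7, Mical3, Slc26a5 and Slc1a7, and none of these genes was higher at P21 in RNA. Slc12a7, a potassium-chloride cotransporter, was higher at DIV28 with 16.5, 15.2 and 29.9 at P21 and 73.7 and 57.8 at DIV28 (log2 −1.71, a call lost when the other ages were left out of the fit), as was Slc1a7, a glutamate transporter gene (1.37, 0 and 2.72, and 106 and 72.6). On the DIV28 side they were at Kpna1, Gm14443, Mlph, Cdkn2a, Dguok, Olfr1224-ps1, Ifi204, Hdgfl2, Hmx1 and Chrna9. The interferon-inducible gene Ifi204 was at 0 in the 3 P21 libraries and at 50.6 and 69.4 at DIV28, and it was the only gene of these 10 to be called. Cdkn2a, which encodes inhibitors of the cell cycle, was too low for the filter, with 0, 1.38 and 0 at P21 and 19.6 and 30.3 at DIV28.

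Gene lists were read next, and the shares above serve as background for each, together with the 15.4% of protein-coding genes that had more P21-only than DIV28-only regions and the 30.6% that had more DIV28-only regions. Regeneration genes lay on the DIV28 side. Of 12 tested genes 10 were higher at DIV28 and 0 at P21 (median log2 −4.06), and the 13 genes had 69 DIV28-only regions, 43 of the 66 distal ones with AP-1 letters, against 22 P21-only regions. The AP-1 share was thus near the 68.3% of all DIV28-only distal regions. The injury factor Atf3 had normalised counts of 2.75, 2.77 and 4.08 at P21 and 262 and 750 at DIV28 (log2 −7.33 ± 0.54, adjusted p = 8.8e-10, edgeR). Its single DIV28-only region (chr1:191221954-191222440, 4186 bp from its start) had a −log10 p of 87.72 and 20.94 and no peak in any in vivo library.

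Jun, the partner of Atf3, had 181, 198 and 200 at P21 and 3016 and 3928 at DIV28 (log2 −4.23 ± 0.28, adjusted p = 2.7e-10, edgeR). Gap43, a growth cone protein, had 30.2, 52.6 and 50.3, and 787 and 1348 (log2 −4.65 ± 0.51), and its strongest AP-1 region (chr16:42453992-42454892) had a peak in 4 of 8 culture and no in vivo libraries. Both genes separated the groups without overlap. Klf6 (log2 −3.08; 19 DIV28-only and 6 P21-only regions), Stat3 (−1.48), the neuropeptide gene Gal (−6.49), Vgf (−3.89) and Crh (−5.02) rose in culture too. Sprr1a, a small proline-rich protein induced by axon injury, was at 0, 0 and 1.36 at P21 and 1351 and 592 at DIV28. The promoters of Gal and Sprr1a held a top peak in both DIV28 libraries and in neither P21 library. Ecel1 (log2 −0.90 ± 0.43) and Npy (−1.86 ± 1.03) did not pass.

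The list of activity and AP-1 genes was split. Of 14 tested, 5 were higher at DIV28 and 1 at P21, and all 17 promoters had a top peak in each of the 4 libraries. Besides Jun and Atf3 the genes called at DIV28 were Fosl2 (log2 −2.90 ± 0.23), Junb (−2.01 ± 0.39) and Jund (−1.95 ± 0.36), all members of the AP-1 family. The acute activity genes gave values without a call: Fos 12.4, 20.7 and 16.3 at P21 and 21.9 and 28.4 at DIV28 (log2 −0.70 ± 0.55), Egr1 0.19 ± 0.42, Npas4 0.33 ± 0.46 and Arc −0.61 ± 0.38. Nr4a1, an orphan nuclear receptor induced by activity, was higher at P21 (log2 2.03 ± 0.34). None of the 17 genes had more P21-only than DIV28-only regions, 8 had more DIV28-only regions, and 20 of the 23 distal DIV28-only regions of the list held AP-1 letters, where 68.3% of all such regions did. The call of Jund was lost without the first DIV28 library.

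Potassium channel genes lay on the P21 side in both readouts. Of 18 potassium channel genes 12 were higher at P21 and 0 at DIV28 (median log2 1.51), and the list had 120 P21-only against 52 DIV28-only regions, with 12 genes tipped to P21 and 3 to DIV28. Without the second DIV28 library 7 of the 18 were called higher at P21, those of Kcnd2, Kcnd3, Kcnc4, Kcnip4 and Kcnn3 being lost. Kcng4, which encodes a modulatory subunit found in fast motor neurons, had 166, 189 and 173 at P21 and 0 and 0 at DIV28, and its promoter had a top peak at P21 in both libraries and at DIV28 in neither. Its region at chr8:119638221-119638648, with the NFI letters, lay 2734 bp from the start with a −log10 p of 20.91 and 29.36. This region had a peak in 8 in vivo libraries and in 2 culture libraries, both of DIV28 with TTX. Kcna1 had 1287, 1376 and 1320, and 125 and 230 (log2 2.81 ± 0.27). Regions and RNA did not always go together. Kcnc2, with 11 P21-only and 2 DIV28-only regions, and Kcnma1, with 19 and 5, had log2 differences of 0.20 ± 0.33 and 0.14 ± 0.37. Kcnd2 (13 and 2 regions, log2 2.11), Kcnn2 (15 and 7, 2.01) and Kcnd3 (10 and 5, 1.47) were higher at P21, the last of these not in 6 alternatives that left out a library or used the replicate block.

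Axon guidance genes had many regions of both classes, 213 P21-only and 163 DIV28-only, and 13 of 20 genes were tipped to P21. In RNA 6 were higher at P21 and 4 at DIV28. The Eph receptor gene Epha4 (17 and 12 regions) had 166, 203 and 192 at P21 and 15 and 6.45 at DIV28 (log2 4.30 ± 0.33), and the neuropilins Nrp1 (8 and 3 regions, log2 2.10) and Nrp2 (18 and 10, 1.84) were also higher at P21. On the other side were Ntn1, the netrin ligand (1 and 6 regions, log2 −3.80), Epha3 (7 and 11, −2.45), Slit1 (4 and 3, −2.12) and Sema3e (5 and 7, −2.13). Robo1 with 17 and 8 regions and Robo2 with 18 and 9 had log2 differences of 0.80 ± 0.24 and 0.42 ± 0.25 and were not called.

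**Figure D4:**
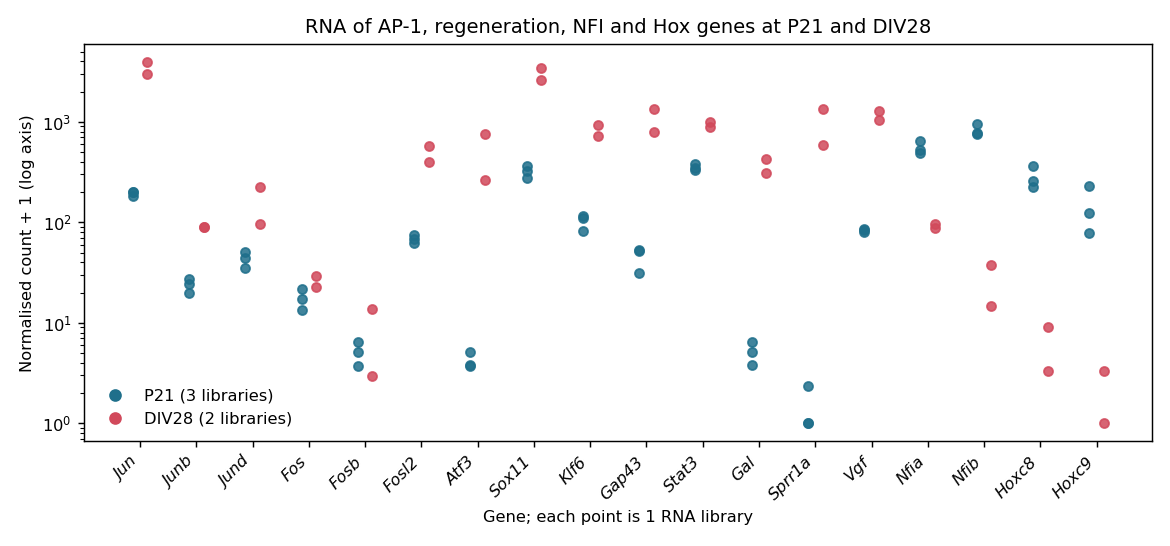
Normalised RNA counts per library on a log axis at P21 and DIV28 for genes named in the text, as normalised count + 1 with 1 point per library. Atf3, Jun, Sox11 and Gap43 are higher in both DIV28 libraries than in any P21 library, and Nfia, Nfib, Hoxc8 and Hoxc9 are lower.

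The NFI genes Nfia and Nfib, the 2 family members among the listed genes, were lower in culture. Nfib had normalised counts of 764, 952 and 755 at P21 and 13.8 and 36.8 at DIV28 (log2 4.80 ± 0.41, adjusted p = 8.1e-09, edgeR), and Nfia 487, 647 and 529, and 94.4 and 86.8 (log2 2.55 ± 0.33). Around Nfib there were 7 P21-only regions, the strongest in its intron at chr4:82695833-82696442 with a −log10 p of 41.94 and 78.64 and a peak in 10 in vivo libraries and 1 culture library. The same gene also had 10 DIV28-only regions, 7 of them with AP-1 letters, and Nfia had 7 P21-only and 3 DIV28-only regions. Over the 11 motor neuron identity genes, 5 were higher at P21 and 1 at DIV28, and the regions leaned to culture, with 64 DIV28-only and 32 P21-only. Isl1 (log2 0.12 ± 0.24) and Mnx1 (−0.72 ± 0.43) were not called. Lhx4 (2.40 ± 0.22), Ebf1 (2.14 ± 0.35) and Isl2 (1.99 ± 0.41) were higher at P21, the last of these not without the second DIV28 library or in a fit of P21 and DIV28 alone. Onecut1, a factor of young motor neurons, was higher at DIV28 (−1.75 ± 0.27) and had 10 DIV28-only and 0 P21-only regions.

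None of the 5 genes of cholinergic identity was higher at P21, and 1 was higher at DIV28, the intermediate filament gene Prph (1452, 979 and 902, and 6196 and 7474, log2 −2.68). Chat had 847, 734 and 801, and 528 and 370 (log2 0.77 ± 0.26, not called). The list had 11 P21-only and 4 DIV28-only regions, 8 and 4 of them at the choline transporter gene Slc5a7. Of 14 genes of adult motor neurons, 9 were higher at P21 and 2 at DIV28, among them the glutamate receptor subunit gene Grin3b (log2 4.40) and Aox1 (3.97). Spp1, which encodes osteopontin and marks alpha motor neurons, was higher at DIV28 with 5600 and 7027 against 77, 126 and 114 at P21. Nuclear receptor genes were higher at P21 in 7 of 13 cases and in 0 at DIV28, with 58 P21-only and 67 DIV28-only regions. The mineralocorticoid receptor gene Nr3c2 (log2 3.49 ± 0.32) had promoter peaks in all 4.

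Hox promoters with a top peak were counted in each of the 4 libraries. Hox groups 1 to 5 had 14, 14, 13 and 14 of 15 promoters with a top peak, P21 libraries first. Groups 6 to 8 had 8, 7, 4 and 7 of 8, and groups 9 to 13 had 8, 8, 6 and 7 of 16. The RNA of several Hox genes was higher at P21. Of 8 tested genes of Hox groups 6 to 8, 5 were higher at P21 and 0 at DIV28 (median log2 2.78), and of 8 tested of groups 9 to 13, 5 and 1. Groups 1 to 5 had 6 and 1 of 14 (median 0.89), and 2 and 0 without the second DIV28 library. Hoxc8 had 364, 259 and 224 at P21 and 2.3 and 8.07 at DIV28 (log2 5.37 ± 0.52), and Hoxc9 227, 122 and 77.6, and 2.3 and 0. The P21 RNA came from brachial and lumbar cord, without the thoracic part used for ATAC-seq, and the cultures were directed to a cervical identity, so the level of the cord cannot be told apart from the system. Promoters of Hoxa9 and Hoxc9 held a top peak in both P21 libraries and in neither DIV28 library, while that of Hoxc10 did so in all 4 with a log2 RNA difference of 2.96 ± 0.30. The calls of Hoxa10, Hoxd9 and 5 genes of groups 1 to 5 were lost in at least 1 alternative.

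Within 75 kb of the Hoxc9 start on chromosome 15 the 2 classes lay in separate stretches. The 4 P21-only regions there were at Hoxc9 and Hoxc6, the first at the Hoxc9 promoter (chr15:102975798-102977464) with a −log10 p of 10.4 and 12.4 and a peak in all 14 in vivo and in 2 culture libraries. The Hoxc6 promoter region at chr15:103000623-103001094 had a peak in 10 in vivo and 0 culture libraries. The 2 DIV28-only regions flanked them at the Hoxc13 promoter (chr15:102920310-102921626), with a −log10 p of 78.2 and 23.4 and a peak in 5 in vivo and all 8 culture libraries, and near Hoxc4 (chr15:103041286-103042221) with 3 and 5. Beyond this window Hoxc4 and Hoxc13 each had 1 P21-only region, and Hoxc13 had 2 further DIV28-only regions. RNA of Hoxc13 was at or near 0 in both groups, with 0, 0 and 1.36 at P21 and 1.15 and 0 at DIV28. Promoters of Hoxb13 likewise held a top peak at DIV28 in both libraries and at P21 in neither, with RNA counts of 0 in all P21 libraries and of 5.76 and 17.4 at DIV28.

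**Figure D5:**
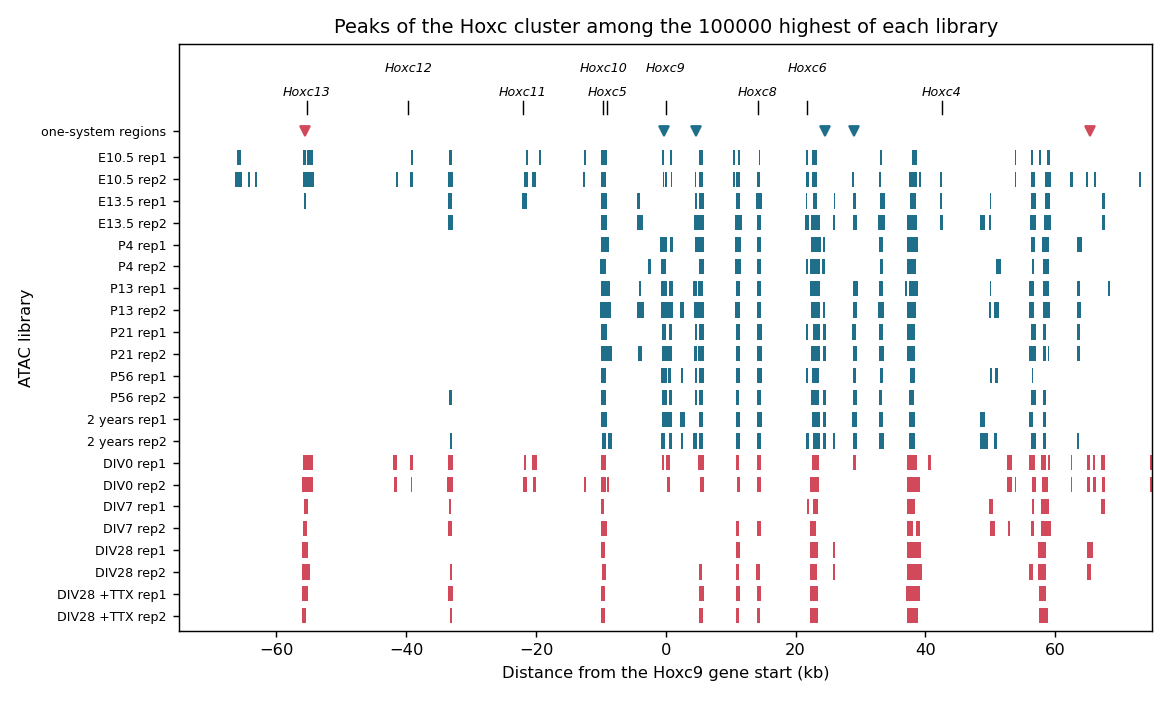
Peaks among the top 100000 of each ATAC-seq library (rows) within 75 kb of the Hoxc9 start, by distance in kb, with in vivo libraries in blue and culture libraries in red and triangles at the single-system regions. The 4 P21-only regions lie between −0.207 and 29 kb and the DIV28-only regions at −55.6 and 65.4 kb, and the Hoxc13 promoter peak is listed in all 8 culture libraries.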

How the data were processed

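The 2 P21 and 2 DIV28 ATAC-seq libraries were compared, with the other 18 ATAC-seq libraries and the RNA-seq libraries as independent measures. For ATAC-seq the authors trimmed reads with Trim Galore and cutadapt 0.6.2, aligned them to mm10 with BWA 0.7.1.7, handled them with SAMtools 1.7.2 and called peaks in each library with MACS2 2.2.7.1 (paired fragments, p limit 0.01, summits called). The deposited peak lists give fold enrichment as a linear ratio and p and q values as −log10. The reads behind the peaks were not analysed here, so no interval is given for them. For RNA-seq the authors aligned with STAR 2.5.2b and deposited expected counts and TPM per gene from RSEM 1.3.0.

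Here each interval kept the summit with the highest −log10 p, the top 100000 peaks per library were merged, and an overlap of 1 bp counted as shared. Distal meant over 2000 bp from any GENCODE vM21 transcript start, and a region was given to the nearest protein-coding start. Motifs were searched within 100 bp of the summit. The named genes were, per class, the 10 with the largest net count of regions, the 10 with the strongest promoter region and all members of the gene lists, and the named regions were the 5 distal ones with the highest lower −log10 p of both replicates. Some genes that meet these rules are not reported here. These choices were made, and the members and lists chosen, with earlier results of these data known.

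Expected counts were rounded, genes with a CPM of at least 5 in all replicates of 1 group or more were kept, and P21 (3 libraries) was contrasted with DIV28 (2 libraries) by edgeR's quasi-likelihood test with TMM factors and Benjamini-Hochberg adjustment in 1 fit of 24 libraries of all groups without TTX. The limits of the study were used to call a gene, an edgeR p under 0.001 before adjustment together with 2-fold or more. Of 15556 genes tested 2119 were higher at P21 and 2254 at DIV28, an order that turned under other scaling (2308 and 2053 with median-of-ratios factors). Normalised counts are divided by median-of-ratios factors. Total RNA counts per library ranged from 2704642 to 21823492, with 3990868, 3978536 and 3901610 at P21 and 4892802 and 21823492 at DIV28. In 1 library the title gave DIV0 while its file was named for DIV28, so it may be another DIV28 replicate, and it entered no fit. The p-values measure the spread between libraries. The count test and the motif search were tested on simulated data, and the overlaps against bedtools on a part of the real regions. Alternatives included DESeq2 1.42.0. Software was R 4.3.3, edgeR 4.0.16, limma 3.58.1, Python 3.11.15, numpy 2.4.6, pandas 2.3.3, scipy 1.17.1, matplotlib 3.10.9 and bedtools 2.31.1.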

Additional observations from a re-analysis of the deposited data

How the results depend on the processing

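No named gene turned its direction, but the order of the 2 sides did in some counts and in the distal share. With the top 50000 peaks 20.9% of P21 and 30.7% of DIV28 peaks were absent from the other system. If 50% of a peak had to be covered these shares were 44.7% and 51.5%, and against the top peaks of the other library only 52.5% and 53%. The P21-only and DIV28-only regions numbered 5360 and 8520 with 50000 peaks, and P21-only regions 34569 against top peaks of the other system only. The order of these counts turned against top peaks of the other system only (34569 and 33843) and without the first P21 library (27555 and 26395). Leaving out a library gave 21820 to 30460 and 26395 to 38370.

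Distal shares at over 5000 bp were 79.8%, 75.5% and 49.5% for P21-only, DIV28-only and shared regions, and with 50000 peaks 89.2% for DIV28-only and 40.5% for shared regions. The leave-one-out fits of region classes, chosen after seeing the data, gave distal shares of 88.6% to 90% for P21-only and 60.3% to 61.8% for shared regions. For DIV28-only regions they gave 88.55% to 88.87%. Without the first DIV28 library the order turned, with 88.56% for P21-only and 88.87% for DIV28-only regions.

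With an equal number of top peaks in each library the mean P21-only presence was 24.6% at E13.5, 39.5% at P4, 63.8% at P13, 67.1% at P56, 64.5% at 2 years, 6% at DIV7 and 1.83% with TTX. For DIV28-only regions it was 5.83% at E13.5, 3.14% at P4, 0.552% at P13, 0.451% at P56, 0.708% at 2 years, 6.27% at DIV0, 35.1% at DIV7 and 60.2% with TTX. With 50000 peaks it was 52.1%, 62.8%, 96.6%, 97.2%, 23.1% and 13.4% for P21-only regions at E13.5, P4, P56, 2 years, DIV0 and DIV7, and 57.2% for DIV28-only regions at DIV7. Without 1 library each, P21-only presence was 77.2% to 88.5% at P56, 76.6% to 87.8% at 2 years, 15% to 21.9% at DIV0 and 13.6% to 30.8% with TTX, and DIV28-only presence 3.41% to 9.14%, 3.78% to 10.8% and 5.94% to 8.84% at P56, 2 years and DIV0.

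For P21-only and DIV28-only regions, windows of 50 bp on each side held AP-1 letters in 2.73% and 54.1%, NFI letters in 10.8% and 6.75%, posterior Hox letters in 10.04% and 5.04% and CAGCTG in 10.2% and 6.66%. With 50000 peaks AP-1 was at 4.47% and 74.3%, and NFI and CAGCTG in P21-only regions at 18.1% and 19.3%. Summits of the second replicate gave AP-1 66.4% and posterior Hox 10.48% in DIV28-only regions. Without 1 library AP-1 was 5.12% to 6.72% and 60.2% to 67.9%, posterior Hox 15.3% to 17.1% and 9.37% to 11.5%, CAGCTG 17.5% to 18.6% and 11.5% to 12.9%, and NFI in DIV28-only regions 11.9% to 13.3%.

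Genes with a net of 5 or more regions numbered 150 on the P21 and 207 on the DIV28 side within 100000 bp of the start, 47 and 70 with 50000 peaks, and 248 to 651 and 308 to 1081 without 1 library, the order turning without the first P21 library (651 and 308) or the second (620 and 485). The share of them higher in RNA was 51.9% at P21 within 100000 bp, and without 1 RNA library 34.9% to 39.7% at P21 and 29.9% to 36.3% at DIV28. Where 1 DIV28 library was left, it was assumed to vary like the other groups.

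For RNA, same-numbered P21 and DIV28 libraries shared only a number (r of deviations 0.0091 and 0.0333). With the replicate block 2065 genes were higher at P21 and 2216 at DIV28, and the shares were 39.4% and 34.1%. The peak results come from no test and were not paired. The 2119 and 2254 genes higher at P21 and DIV28 turned in order with median-of-ratios factors (2308 and 2053) and DESeq2 (2576 and 2138). Of 113 calls among the named genes, DESeq2 lost 1, the block 5, a fit of P21 and DIV28 alone 8 of 102, and leaving out a library 6 to 23, most without the second DIV28 library. None changed sign. Read depth, unknown for ATAC-seq, limits all absences of a peak.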
